A study of Mus musculus with 8 samples.

Results

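The genes described here are those of the secretory pathway and of protein folding in the endoplasmic reticulum (ER). They were given as a list of 49 symbols chosen by function, and 47 of them were measured among 12393 genes. The list was chosen with earlier results of these data known. Each gene was represented by its probe set with the highest mean over the 8 arrays. Sec61g and Tmed2 had no probe set assigned to a single symbol and have no value. Ero1l was found under its current symbol, Ero1a.

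Expression was measured in 6 primary sarcomas of the soft tissue and 2 normal muscles of mice, on 8 Affymetrix arrays. Every animal carried p53 Fl/Fl, a floxed p53 allele on both chromosomes, together with a conditional Braf allele called BrafCa. There were 4 sarcomas of Braf Ca/Ca mice (tumours 1, 2, 3 and 5), 2 sarcomas of Braf Ca/+ mice (tumours 1 and 2), 1 muscle of a Ca/Ca mouse and 1 of a Ca/+ mouse. Tumours had been started by injecting an adenovirus that carries Cre recombinase, which recombines conditional alleles in the cells it enters, and the labels mention no purification of tumour cells from host cells. The muscles were taken from a hind limb without tumour. Nothing in the labels ties each array to an animal of its own, so a p-value here reflects only how far these samples spread, and that spread may include technical error. The 8 arrays had near-equal distributions, with medians from 5.79 to 5.90 log2 units.

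Proteins destined for the cell surface, the matrix or the secretory organelles enter the ER while they are made. The signal recognition particle brings the ribosome to the ER membrane, the Sec61 translocon threads the chain through it, signal peptidase removes the leader and the oligosaccharyltransferase adds sugar trees. Chaperones and disulfide isomerases then fold the chain, COPII-coated vesicles carry it to the Golgi, and COPI-coated vesicles and the KDEL receptors return escaped ER residents. When unfolded chains accumulate, the sensors of the unfolded protein response switch on chaperone genes through the transcription factors ATF6 and XBP1. Striated muscle fibres keep a specialised ER, the sarcoplasmic reticulum, that stores calcium for contraction.

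The promoters of several of these genes hold the ER stress response element (ERSE), the sequence at which ATF6 is known to act together with the CCAAT-binding factor NF-Y. ERSE was searched as CCAAT, any 9 bases, CCACG, on both strands of the 300-base RefSeq promoters (250 bases before to 50 after the annotated start, mouse build GRCm38.p6). A promoter was in the table for 39 of the 47 measured genes. ERSE matched 7 of these 39 promoters (17.9%), against 39 of all 32851 promoters of that length (0.119%). Among promoters of measured genes it matched 18 of 12566 (0.143%). The listed genes were counted once each and the others by promoter. The motif is known from genes of this pathway, so these shares describe the list and are not a test. The 5 genes with a match that were higher in sarcoma are shown first, on the strand of the gene, with the match in capitals. In Creld2 and at the second match of Hsp90b1 the element lies on the opposite strand and therefore reads CGTGG, 9 bases, ATTGG.
Hspa5 (chr2:34772010-34772058, plus strand): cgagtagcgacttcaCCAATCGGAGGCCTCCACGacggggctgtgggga
Hsp90b1 (chr10:86705518-86705671, minus strand): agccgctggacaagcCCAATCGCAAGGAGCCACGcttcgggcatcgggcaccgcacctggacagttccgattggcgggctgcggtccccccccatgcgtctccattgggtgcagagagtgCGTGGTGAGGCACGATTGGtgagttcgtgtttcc
Canx (chr11:50325785-50325833, minus strand): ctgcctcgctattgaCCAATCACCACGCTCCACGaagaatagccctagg
Creld2 (chr15:88819505-88819553, plus strand): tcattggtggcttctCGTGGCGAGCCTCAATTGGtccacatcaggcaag
Pdia6 (chr12:17266476-17266524, plus strand): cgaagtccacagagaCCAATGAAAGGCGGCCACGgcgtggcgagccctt

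Calr and Dnajc3 also held an ERSE, and neither passed the test between sarcoma and muscle. A shorter form, ERSE-II, was searched as ATTGG, any 1 base, CCACG, and matched 2 of the 39 promoters (5.13%) against 12 of all promoters (0.0365%). Its matches were in Herpud1, which was lower in sarcoma, and in Dnajb11, where it lay after the start. The core of the unfolded protein response element (UPRE), TGACGTGG, to which XBP1 is known to bind, matched 4 of the 39 (10.3%) against 222 of all promoters (0.676%). Those 4 were Kdelr3, Sec24d and Copb2, which were higher in sarcoma, and Sec23a, which did not pass. No matches overlapped each other. The 5 promoters printed next were chosen for display after their values were seen, to set genes that passed beside genes that did not.
Calr (chr8:84847060-84847108, minus strand): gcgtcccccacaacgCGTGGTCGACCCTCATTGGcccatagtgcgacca
Dnajc3 (chr14:118937812-118937860, plus strand): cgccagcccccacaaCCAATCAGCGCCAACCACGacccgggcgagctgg
Herpud1 (chr8:94386362-94386402, plus strand): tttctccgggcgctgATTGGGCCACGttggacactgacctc
Kdelr3 (chr15:79516363-79516400, plus strand): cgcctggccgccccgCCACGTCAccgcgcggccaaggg
Sec24d (chr3:123267455-123267492, plus strand): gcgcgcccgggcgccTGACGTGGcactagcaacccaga

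**Figure D1:**
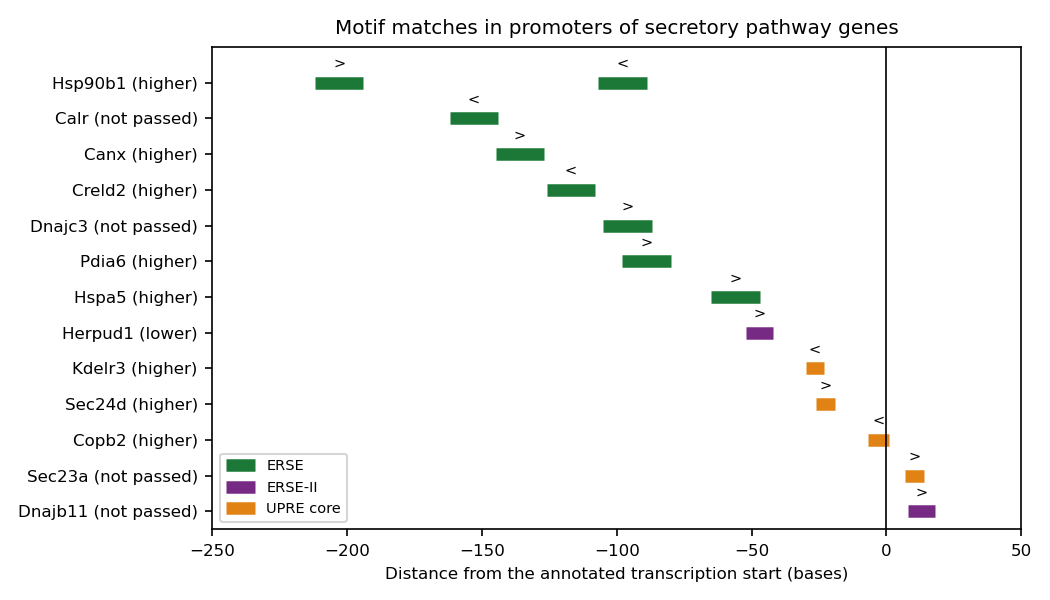
Motif matches in the promoters of 13 secretory pathway genes, plotted by distance in bases from the annotated transcription start (vertical line at 0); > marks a match on the strand of the gene and < one on the opposite strand, and the word after each gene is its result in sarcoma against muscle. ERSE matches lie between 212 and 47 bases before the start, and UPRE core matches lie within 30 bases of it.

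Counted by the result in sarcoma against muscle, ERSE was in 5 of 18 promoters of genes that were higher, in 0 of 2 that were lower and in 2 of 19 that did not pass. A match is only a run of letters in a window and says nothing about binding in these samples. Shares of ERSE-II and the UPRE core were counted in the same way as those of ERSE and are not a test either. Hyou1, Manf, Sec61a1, Ssr2, Spcs3, Ostc, Kdelr2 and Lman1 were the measured genes without a promoter entry.

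In sarcoma against muscle, 24 of the 47 genes were higher and 2 were lower at an adjusted p under 0.05, while 21 did not pass. Over all 12393 genes, 13.1% were higher and 13.2% were lower by the same test. The median difference, sarcoma minus muscle, was 0.77 log2 units over the 47 genes and 0.03 over all genes. The 47 genes were bright, since 68.1% of all genes had a lower mean level than the dimmest of them. Without the dimmest 50% of genes, 28 of the 47 were higher and 2 lower. Of all genes kept, 23% were then higher and 14.3% lower, with a median difference of 0.20. Differences above 0 were found for 43 of the 47 genes and for 52.3% of all genes, and for 39 of the 47 with each array centred on 13 measured housekeeping genes or after cyclic loess. For 31 genes all 6 sarcomas lay above both muscles (20.0% of all genes), and for 3 they all lay below (19.0% of all genes). The changes were moderate, since only 9 of the 26 genes that passed differed by 2-fold or more.

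Scaling and the muscle samples bore on these counts. The test took 1 spread for both tissues, so its SE and p-value do not allow for genes whose muscles varied more. For Pdia3 the SD was 0.57 over the 2 muscles and 0.17 over the 6 sarcomas, and for Srpr it was 0.09 and 0.14. Centring on housekeeping genes moved the median of all genes from 0.03 to -0.22, and then 16 of the 47 genes were higher and 3 lower (7.67% and 19.7% of all genes). Cyclic loess also gave 16 higher and 3 lower (9.34% and 14.8% of all genes). Without the Ca/+ muscle, 5 genes remained higher (Hyou1, Sec61a1, Ssr1, Ddost and Sec24d) and Srpr remained lower, when 3.00% of all genes were higher and 6.64% lower. Without the Ca/Ca muscle, 22 genes were higher and 1 was lower (8.39% and 10.4% of all genes). In bulk tissue, fewer cells of a type and less RNA per cell cannot be told apart.

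**Figure D2:**
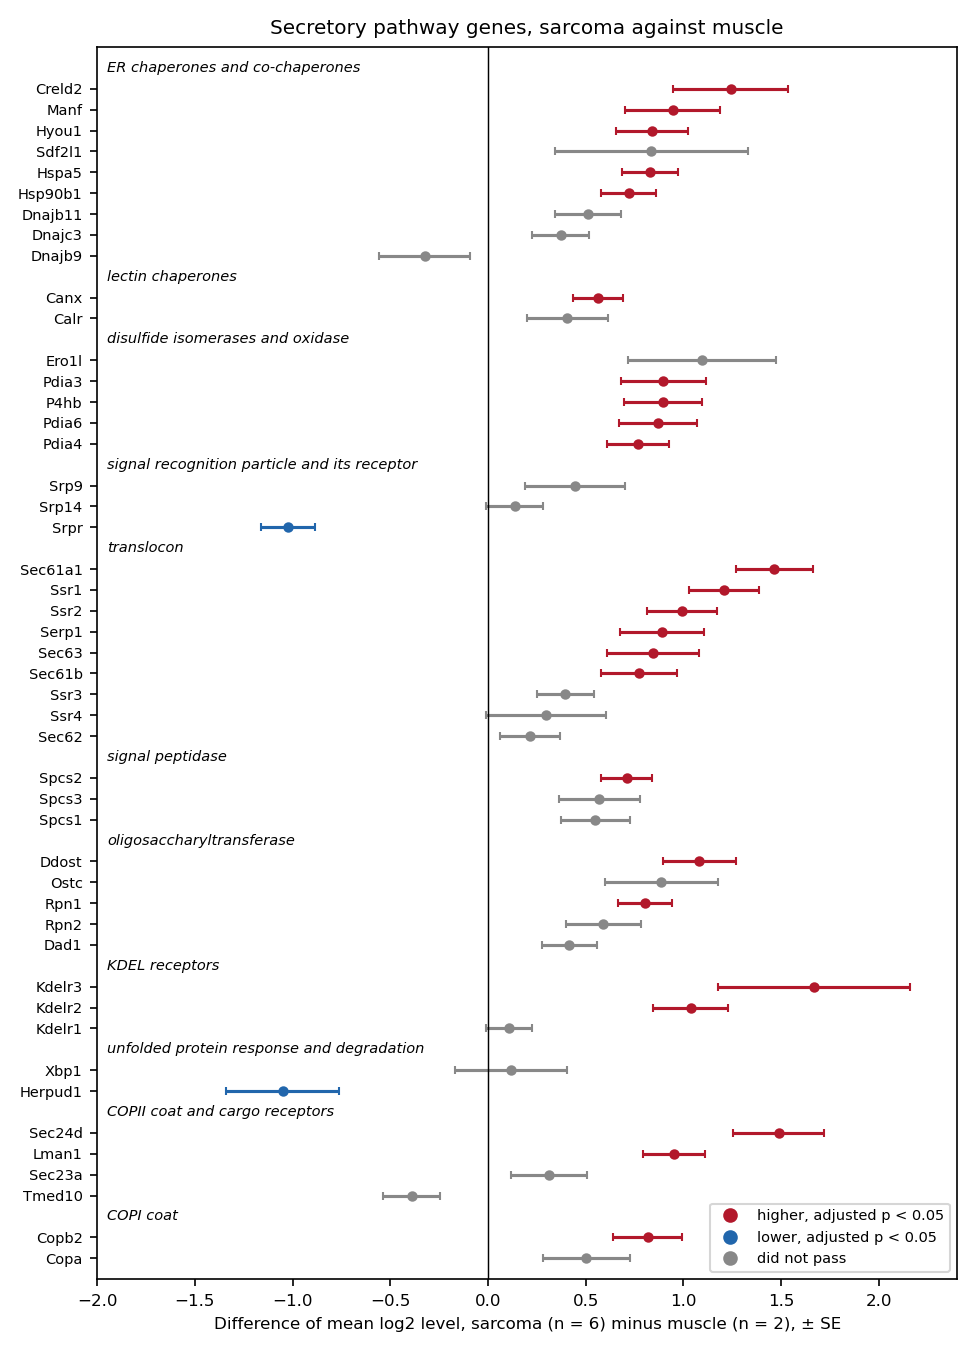
Difference of mean log2 level between 6 sarcomas and 2 muscles for each measured gene, grouped by role, with the standard error from limma as a bar. Red points passed as higher, blue points as lower and grey points did not pass; Kdelr3, Sec24d and Sec61a1 lie farthest to the right, and Srpr and Herpud1 to the left.

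Targeting to the ER membrane is the first step, and none of its 3 measured genes was higher. Srpr, the alpha subunit of the signal recognition particle receptor, was lower in sarcoma. Its log2 level was 9.33 at the lowest, 9.49 at the median and 9.74 at the highest of the 6 sarcomas, against 10.58 and 10.46 in the Ca/Ca and Ca/+ muscle. The groups did not overlap, and muscle was 2.03-fold above sarcoma (difference -1.02, SE 0.14, adjusted p 0.0013). Srpr passed without either muscle, at -1.08 (adjusted p 0.0143) without the Ca/+ one. A second Srpr probe set read between 3.15 and 3.61 on all arrays and differed by 0.01.

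Srp9 and Srp14, which form the Alu domain of the particle and slow the ribosome before docking, did not pass. Srp9 differed by 0.44 (SE 0.26, adjusted p 0.251), with all 6 sarcomas (9.58 to 10.56) above the muscles (9.43 and 9.47). Srp14 differed by 0.14 (SE 0.15), and its sign turned to -0.11 with housekeeping centring and -0.15 after cyclic loess. Ca/Ca sarcoma 3 was the highest sarcoma for both genes, at 10.56 for Srp9 and 11.29 for Srp14. Of 13 other targeting and translocation genes measured, 4 were higher and 1 was lower (13.1% and 13.2% of all genes). Among them Srprb, the beta subunit that anchors Srpr in the membrane, was higher by 0.82 (SE 0.16, adjusted p 0.00646). Srp19, another protein of the particle, was higher by 0.71 (SE 0.19, adjusted p 0.0239).

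The translocon held the largest number of higher genes, 6 of 9 measured, and none was lower. Sec61a1 encodes the pore-forming subunit of the main Sec61 channel. Its level ran from 10.41 to 11.05 over the 6 sarcomas with a median of 10.53, against 9.36 and 8.93 in the Ca/Ca and Ca/+ muscle. Every sarcoma was at least 1 log2 unit above the higher muscle, and the difference was 1.47 (2.76-fold, SE 0.20, adjusted p 0.00129). Sec61a2, the gene of the other alpha subunit, went the opposite way, at 5.81 to 6.32 in the sarcomas against 6.85 and 6.88 in the muscles (difference -0.84, SE 0.16, adjusted p 0.00652). The difference between these genes was not tested. Sec61b, the small beta subunit, was higher by 0.77 (SE 0.19, adjusted p 0.0205).

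The subunits of the translocon-associated complex TRAP, which assists the entry of some chains, differed among themselves. Ssr1 stood at 10.09, 10.33 and 10.46 (lowest, median and highest sarcoma) against 9.43 and 8.79 in the Ca/Ca and Ca/+ muscle. Its difference of 1.21 (2.31-fold, SE 0.18) passed at an adjusted p of 0.00219. Ssr2 was higher by 0.99 (SE 0.18, adjusted p 0.00541). Ssr3 and Ssr4 did not pass, at 0.40 (SE 0.15, adjusted p 0.0821) and 0.30 (SE 0.31, adjusted p 0.53), although all 6 sarcomas lay above both muscles for Ssr3. Ssr4 spread widely among the sarcomas, between Ca/+ sarcoma 1 (9.55) and Ca/Ca sarcoma 3 (10.93), and its probe sets averaged to -0.05. Whether the subunits differed from each other was not tested.

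Serp1, a small protein that stabilises membrane proteins under ER stress, was higher by 0.89 (SE 0.21, adjusted p 0.0173). Sec63, the partner that brings the chaperone BiP to the channel, was higher by 0.84 (SE 0.24, adjusted p 0.0308), with sarcomas from 7.90 to 8.76 and muscles at 7.63 and 7.22. Its adjusted p came to 0.0538 without Ca/Ca sarcoma 1, 0.053 without Ca/+ sarcoma 1, 0.0562 without the Ca/Ca muscle and 0.266 without the Ca/+ muscle. Sec62, which works beside Sec63, differed by 0.21 (SE 0.15), with only 3 of 6 sarcomas above both muscles, and by -0.03 with housekeeping centring. Of the 6 translocon genes that were higher, Sec61a1 (1.25, adjusted p 0.0227) and Ssr1 (0.89, adjusted p 0.0242) passed without the Ca/+ muscle. The remaining 4 did not, at differences from 0.53 to 0.80.

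Signal peptidase and the oligosaccharyltransferase act on the chain as it emerges. Of the accessory subunits of signal peptidase, Spcs2 was higher, with sarcomas from 9.86 to 10.07 and muscles at 9.42 and 9.10 (difference 0.71, SE 0.13, adjusted p 0.00541). Without the Ca/+ muscle the Spcs2 difference was 0.55 (adjusted p 0.0769), and a second probe set of the gene, nearly as bright, differed by -0.01, with their mean at 0.35 (adjusted p 0.0558). Spcs1 (0.55, SE 0.18, adjusted p 0.0502) had all sarcomas above both muscles but did not pass. Spcs3 (0.57, SE 0.21, adjusted p 0.0762) overlapped, because Ca/+ sarcoma 1 at 8.66 lay below the Ca/Ca muscle at 8.71. Spcs3 passed without that sarcoma (0.68, adjusted p 0.0109), and Spcs1 without Ca/Ca sarcoma 1 (0.60, adjusted p 0.0482) or Ca/Ca sarcoma 3 (0.47, adjusted p 0.0371). The catalytic subunit gene Sec11a, from the list of other translocation genes, was higher by 0.68 (SE 0.12, adjusted p 0.00539) and was singled out after its value was seen.

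All 5 measured subunits of the oligosaccharyltransferase had every sarcoma above both muscles, and 2 of them passed. Ddost, a subunit of its core, stood at 10.41, 10.58 and 10.78 (lowest, median and highest sarcoma) against 9.86 and 9.18 in the Ca/Ca and Ca/+ muscle. The difference was 1.08 (2.12-fold, SE 0.19, adjusted p 0.00427), and without the Ca/+ muscle it was 0.74 (adjusted p 0.0486). Rpn1, which presents some substrates to the enzyme, was higher by 0.80 (SE 0.14, adjusted p 0.00418), and did not pass without the Ca/+ muscle (0.65, adjusted p 0.0614). Rpn2, Dad1 and Ostc differed by 0.59, 0.42 and 0.89 with adjusted p of 0.0551, 0.0628 and 0.0537. Without Ca/Ca sarcoma 3, Rpn2 (0.66, adjusted p 0.0303) and Ostc (0.76, adjusted p 0.0468) passed, as did Ostc without Ca/+ sarcoma 1 (0.98, adjusted p 0.0397). Dad1 passed on the mean of its probe sets (0.50, adjusted p 0.0366). In the wider N-glycosylation list, 8 of 18 measured genes were higher and 1 was lower (13.1% and 13.2% of all genes). The higher ones were led by Tusc3 (1.36, SE 0.32), an oxidoreductase subunit of the same enzyme, and Alg5 (1.09, SE 0.26), which makes the glucose donor. The lower gene was Dpm1 (-0.62, SE 0.15), a subunit of the mannose donor synthase.

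Folding helpers of the ER lumen were higher for 5 of 9 chaperones and co-chaperones, 1 of 2 lectin chaperones and 4 of 5 disulfide enzymes, with none lower. Hspa5 encodes BiP, the main Hsp70 of the ER. Its level was 11.25, 11.54 and 11.59 (lowest, median and highest sarcoma) against 10.83 and 10.51 in the Ca/Ca and Ca/+ muscle. All sarcomas lay above both muscles, and the difference of 0.83 (1.78-fold, SE 0.14) had an adjusted p of 0.00406. Hsp90b1, the ER Hsp90 (GRP94), was higher by 0.72 (SE 0.14, adjusted p 0.00739), with sarcomas from 10.55 to 10.80 and muscles at 10.11 and 9.72. Hyou1, a large Hsp70-like protein that exchanges nucleotide on BiP, had 3 probe sets, and the dimmest read 2.33 to 2.64 on all arrays. On its brightest probe set Hyou1 was higher by 0.84 (SE 0.18, adjusted p 0.0116). It was among the few genes here that were lower in the Ca/Ca muscle (7.64) than in the Ca/+ muscle (8.11), and it did not pass without the Ca/Ca muscle (0.60, adjusted p 0.106) or on the mean of its probe sets (0.49, adjusted p 0.0625).

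Creld2 and Manf are small luminal proteins induced by ER stress. Creld2 had sarcoma levels from 7.78 to 8.62 with a median of 8.17, against 7.34 and 6.58 in the Ca/Ca and Ca/+ muscle. That was a difference of 1.24 (2.36-fold, SE 0.29, adjusted p 0.0157), with no overlap. Manf was higher by 0.94 (1.92-fold, SE 0.24, adjusted p 0.0225). Sdf2l1, a stress-induced cofactor of BiP, had a difference of the same order (0.84) but an SE of 0.49 and did not pass (adjusted p 0.261). Its sarcoma levels ran from 6.47 in Ca/Ca sarcoma 5 to 8.37 in Ca/Ca sarcoma 3, and its muscles read 7.37 and 6.29. Without the Ca/+ muscle, Hyou1 was the only gene of the 5 chaperones to pass, and the others had differences from 0.52 to 0.86 with adjusted p up to 0.242.

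Dnajb11, Dnajc3 and Dnajb9, luminal J-domain proteins that stimulate BiP, did not pass. Dnajb11 differed by 0.51 (SE 0.17, adjusted p 0.0562) with all 6 sarcomas above both muscles. Dnajc3, also an inhibitor of the kinase PERK, differed by 0.37 (SE 0.15, adjusted p 0.0997), and its next brightest probe set by -0.03. Dnajb9, which assists degradation of misfolded chains, differed by -0.32 (SE 0.23, adjusted p 0.356), with sarcomas from 8.42 to 9.21 around muscles at 9.09 and 9.26. The lectin chaperones calnexin and calreticulin hold glycoproteins by their glucose residue. Canx was higher by 0.56 (SE 0.13, adjusted p 0.0131), and Calr differed by 0.41 (SE 0.21, adjusted p 0.195) with 5 of 6 sarcomas above both muscles. Without the Ca/+ muscle Canx did not pass (0.42, adjusted p 0.156).

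The 4 disulfide isomerases, which form and reshuffle the bonds between cysteines, were all higher. P4hb, Pdia3, Pdia4 and Pdia6 were higher by 0.89 (SE 0.20, adjusted p 0.0126), 0.90 (SE 0.22, adjusted p 0.0175), 0.77 (SE 0.16, adjusted p 0.00905) and 0.87 (SE 0.20, adjusted p 0.0135). Pdia4 had the smallest spread of all 47 genes over the 6 sarcomas, from 8.61 to 8.80 (SD 0.07), with muscles at 8.24 and 7.66. The mean of its probe sets did not pass (0.33, adjusted p 0.0767), with the second probe set between 3.07 and 3.31 on all arrays. P4hb doubles as the beta subunit of the collagen prolyl hydroxylase, and its sarcomas ran from 11.01 to 11.56 against 10.80 and 10.18. None of these 4 passed without the Ca/+ muscle, at differences from 0.48 to 0.70. Ero1l, the oxidase that recharges the isomerases, differed by 1.09 (2.13-fold, SE 0.38, adjusted p 0.0662) and did not pass on its brightest probe set. Its other probe sets differed by 2.25 and 1.76, the mean of the 3 passed at 1.70 (adjusted p 0.015), and the brightest passed without Ca/Ca sarcoma 2 (1.24, adjusted p 0.0381). On the brightest probe set all 6 sarcomas lay above the muscles (6.76 and 6.82), but they spread from 7.17 in Ca/Ca sarcoma 2 to 8.79 in Ca/Ca sarcoma 1. Among 24 other ER folding enzymes, 10 were higher and none was lower (13.1% and 13.2% of all genes). The higher ones were led by the reticulocalbin Rcn1 (1.60, SE 0.31, adjusted p 0.0067) and the disulfide isomerase Txndc5 (1.52, SE 0.22, adjusted p 0.00193).

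The 3 KDEL receptors, which catch ER residents that carry a retrieval tail, were higher in 2 cases, Kdelr2 and Kdelr3. Kdelr1 had sarcomas from 9.65 to 9.86 with a median of 9.79, against 9.76 and 9.58 in the Ca/Ca and Ca/+ muscle. The groups overlapped, and the difference of 0.11 (SE 0.12, adjusted p 0.549) turned to -0.14 with housekeeping centring and -0.15 after cyclic loess. Kdelr2 stood at 10.90, 11.07 and 11.36 (lowest, median and highest sarcoma) against 10.37 and 9.72, without overlap. It was higher by 1.04 (2.05-fold, SE 0.19, adjusted p 0.0057), and by 0.71 (adjusted p 0.0701) without the Ca/+ muscle.

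Kdelr3 showed the largest difference of the 47 genes, 1.67 (3.18-fold, SE 0.49, adjusted p 0.0371), and the widest scatter among those that passed. It read 8.09 in Ca/Ca sarcoma 1, 8.09 in Ca/Ca sarcoma 2, 8.84 in Ca/Ca sarcoma 3, 8.85 in Ca/Ca sarcoma 5, 7.23 in Ca/+ sarcoma 1 and 8.51 in Ca/+ sarcoma 2. The muscles were 1.43 apart, at 7.32 in Ca/Ca and 5.88 in Ca/+, so Ca/+ sarcoma 1 lay below the Ca/Ca muscle. Its call was lost on leaving out Ca/Ca sarcoma 1 (adjusted p 0.0567), Ca/Ca sarcoma 2 (0.059), Ca/Ca sarcoma 3 (0.0588), Ca/+ sarcoma 2 (0.0699) or the Ca/+ muscle (0.362, at a difference of 0.95). Whether the 3 receptors differed from each other was not tested.

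**Figure D3:**
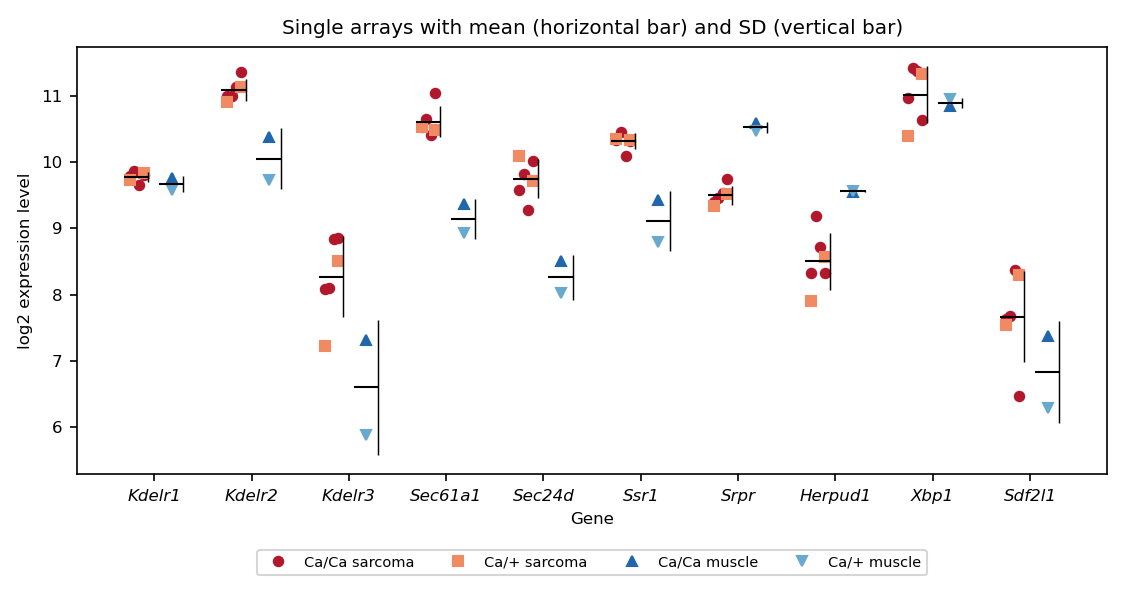
log2 expression of 10 secretory pathway genes on each of the 8 arrays, with the mean as a horizontal bar and the SD as a vertical bar for 6 sarcomas and for 2 muscles. Sec61a1, Sec24d, Ssr1 and Kdelr2 show sarcomas above both muscles, Srpr and Herpud1 show them below, and Kdelr1, Kdelr3, Xbp1 and Sdf2l1 overlap.

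Xbp1 and Herpud1 were the 2 genes placed under the unfolded protein response and degradation, and neither was higher. Of the genes described above as induced by ER stress, Creld2 and Manf were higher and Sdf2l1 did not pass. Herpud1, which helps assemble the machinery that draws misfolded chains out of the ER, was lower. It stood at 7.91, 8.45 and 9.18 (lowest, median and highest sarcoma) against 9.55 and 9.56 in the Ca/Ca and Ca/+ muscle. All sarcomas lay below both muscles, muscle was 2.07-fold above sarcoma (difference -1.05, SE 0.29, adjusted p 0.0284), and a second probe set differed by -0.71. The Herpud1 call was lost without Ca/Ca sarcoma 1 (adjusted p 0.053), Ca/+ sarcoma 2 (0.0503), the Ca/Ca muscle (0.118) or the Ca/+ muscle (0.166), while the difference stayed between -1.19 and -0.93.

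Xbp1 encodes the transcription factor whose mRNA is spliced by the sensor IRE1, and the probe sets were not read as spliced or unspliced form. Its sarcoma levels were 10.39, 11.14 and 11.41 (lowest, median and highest) against 10.84 and 10.95 in the muscles. The groups overlapped, with a difference of 0.12 (SE 0.29, adjusted p 0.805) that turned to -0.13 with housekeeping centring. Of 15 further sensors and transcription factors of the response, 2 were higher and 1 was lower (13.1% and 13.2% of all genes). Ddit3, the pro-apoptotic factor CHOP, was higher by 1.10 (SE 0.23, adjusted p 0.0103), with sarcomas from 7.37 to 8.26 and muscles at 6.78 and 6.75. Creb3, a membrane-bound factor related to ATF6, was higher by 0.77 (SE 0.16, adjusted p 0.0086), and Wfs1, an ER membrane protein that restrains the response, was lower (-1.04, SE 0.13, adjusted p 0.00103).

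The sensor genes Ern1, Atf6 and Eif2ak3 and the factor Atf4, named after their values were seen, did not pass. Their differences were 0.14 (SE 0.19), -0.29 (SE 0.14), 0.69 (SE 0.23) and -0.19 (SE 0.14). Among 20 genes of ER-associated degradation, 2 were higher and 1 was lower (13.1% and 13.2% of all genes). Edem1, which marks glycoproteins for disposal, was higher by 1.13 (SE 0.24, adjusted p 0.0107), and Ube2j1, a ubiquitin-conjugating enzyme of the ER membrane, by 0.54 (SE 0.15, adjusted p 0.0318). Herpud2, the relative of Herpud1, was lower as well (-0.65, SE 0.19, adjusted p 0.0328), with sarcomas from 7.65 to 8.30 and muscles at 8.60 and 8.62.

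Transport out of the ER was represented by 4 measured genes of the COPII route, of which 2 were higher. Sec24d, a cargo-binding subunit of the COPII coat, read 9.28, 9.77 and 10.09 (lowest, median and highest sarcoma) against 8.50 and 8.02 in the Ca/Ca and Ca/+ muscle. Its difference of 1.49 (2.81-fold, SE 0.23, adjusted p 0.00277) was 1.25 (adjusted p 0.0434) without the Ca/+ muscle. Lman1, a lectin that ferries glycoproteins to the Golgi, was higher by 0.95 (1.93-fold, SE 0.16, adjusted p 0.00361), and reached an adjusted p of 0.054 without the Ca/+ muscle (difference 0.82). Sec23a, the coat subunit that binds Sec24 proteins, did not pass (0.31, SE 0.19, adjusted p 0.285), with 3 of 6 sarcomas above both muscles. Tmed10, a cargo receptor of the p24 family, differed by -0.39 (SE 0.14, adjusted p 0.0792), with all sarcomas below both muscles. With housekeeping centring Tmed10 passed as lower, at -0.64 (adjusted p 0.0143), and after cyclic loess at -0.63 (adjusted p 0.0124).

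Of 27 further COPII and export genes, 9 were higher and 1 was lower (13.1% and 13.2% of all genes). Sec22b, a SNARE of this route, was higher by 1.14 (SE 0.16, adjusted p 0.0017), and Sec23b, the relative of Sec23a, by 0.95 (SE 0.12, adjusted p 0.000995). Sar1b, a GTPase that starts the coat, was lower by the largest amount of any pathway gene named here. It ran from 8.76 to 9.63 in the sarcomas against 11.59 and 11.68 in the muscles (difference -2.46, SE 0.24, adjusted p 0.000288). On the return route, Copb2 of the COPI coat was higher by 0.82 (SE 0.18, adjusted p 0.011), with sarcomas from 9.17 to 9.79 and muscles at 8.71 and 8.44. It did not pass without the Ca/+ muscle (0.68, adjusted p 0.127), and Copa did not pass on all arrays (0.50, SE 0.22, adjusted p 0.132) but did without Ca/Ca sarcoma 3 (0.61, adjusted p 0.03). Of 15 other COPI and Arf genes, 7 were higher (13.1% of all genes), led by Arf3 (1.01, SE 0.27) and Copg1 (0.91, SE 0.18). The GTPase activator Arfgap2 was lower (-1.71, SE 0.12, adjusted p 5.73e-05).

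Across the 7 lists of other pathway genes, 42 of 132 measured genes were higher, 6 were lower and 84 did not pass, with a median difference of 0.40. Over all genes 13.1% were higher and 13.2% lower, with a median difference of 0.03. Chaperones outside the ER were also higher in part, since 11 of 22 cytosolic and mitochondrial chaperones passed as higher and 1 as lower. Hsp90aa1, the inducible cytosolic Hsp90, was higher by 1.68 (SE 0.14, adjusted p 0.000133) and Dnaja1, a J-domain co-chaperone gene, by 1.01 (SE 0.13, adjusted p 0.00113). The mitochondrial Hsp90 gene Trap1 was lower (-1.11, SE 0.21, adjusted p 0.0057). Whether these lists differed from the 47 genes was not tested. Of 13 sarcoplasmic reticulum genes, 10 were lower and 2 were higher, with a median difference of -4.12. Casq1, the calcium store of fast fibres, fell from 11.74 and 11.38 in the muscles to between 4.80 and 6.68 in the sarcomas (difference -5.86, SE 0.52, adjusted p 0.000181). Trdn, which ties that store to the release channel, was lower by a difference of -5.14 (SE 0.48), while Asph (1.34, SE 0.37) and Atp2a2 (1.07, SE 0.22), the pump gene of slow muscle and most other tissues, were higher.

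Fibrillar collagens and their processing enzymes are a main secretory load of mesenchymal cells. In their list 2 of 13 genes were higher and none lower (13.1% and 13.2% of all genes), with a median difference of 0.14. Those 2 were P4ha1 (1.21, SE 0.37, adjusted p 0.0428), the catalytic partner of P4hb in the prolyl hydroxylase, and the lysyl hydroxylase gene Plod3 (0.80, SE 0.20, adjusted p 0.0186). Marker lists of cell types moved with the same contrast. All 12 muscle fibre markers were lower, with list means of 7.39 to 9.67 in the sarcomas and of 13.10 and 13.01 in the muscles, as were 8 of 8 adipocyte and 7 of 10 endothelial markers. In the cell division list 7 of 11 genes were higher, in the macrophage list 1 of 12, in the B and plasma cell list 2 of 9, and in the fibroblast list 1 of 12 was higher and 1 lower. The shares over all genes were 13.1% higher and 13.2% lower. The part of any cell type in the differences of the 47 genes was not tested.

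The muscles stood apart from each other for these genes. In 40 of the 47, the Ca/Ca muscle was above the Ca/+ muscle, against 49.0% of all genes, with a median gap of 0.35 against -0.01 over all genes. The largest gaps were those of Kdelr3 (1.43), Sdf2l1 (1.09), Pdia3 (0.81) and Creld2 (0.76). The 7 exceptions were Hyou1, Dnajb9, Dnajc3, Ero1l, Srp9, Xbp1 and Herpud1. With 1 muscle per genotype, genotype and sample cannot be told apart here, and the gap between the muscles was not tested. Other lists also differed between the muscles. The Ca/Ca muscle was higher for 13 of 13 collagen genes (list mean 9.51 against 8.31), 12 of 12 macrophage markers (9.90 against 8.54), 10 of 12 fibroblast markers (10.84 against 9.70) and 11 of 11 cell division genes (6.26 against 5.32), and lower for 8 of 8 adipocyte markers (9.04 against 10.92). The muscle fibre lists were close, at 13.10 and 13.01. The part of these cell types in the gap was not tested.

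**Figure D4:**
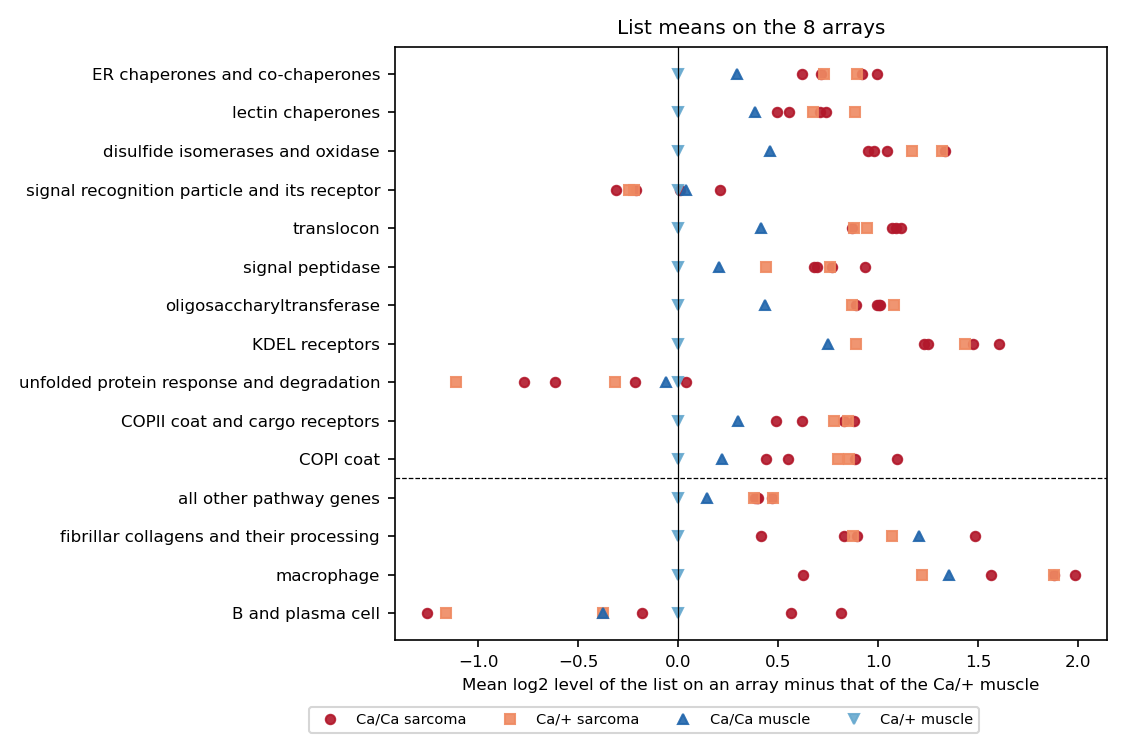
Mean log2 level of each list on each array, minus that of the Ca/+ muscle (vertical line at 0), for the 11 roles above the dashed line and for 4 further lists below it. Sarcomas lie to the right of both muscles for most roles, the signal recognition particle and unfolded protein response roles are exceptions, and the Ca/Ca muscle lies to the right of the Ca/+ muscle for collagens and macrophage markers.

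Among the sarcomas, Braf Ca/Ca was compared with Braf Ca/+ to ask whether the dose of the allele went with these genes. None of the 47 passed by limma (0% of all genes passed), none had an unadjusted p under 0.05, and over all genes 971 had. The median difference, Ca/Ca minus Ca/+, was -0.01 for the 47 genes and -0.0005 for all genes. The largest difference was that of Kdelr3, with Ca/Ca sarcomas at 8.47 ± 0.43 (SD, n = 4) and Ca/+ sarcomas at 7.87 ± 0.91 (SD, n = 2). It was 0.60 (95% interval -0.43 to 1.62, adjusted p 0.728). Pdia3 and Rpn2 were the 2 genes whose genotypes did not overlap (21.0% of all genes), and Pdia3 lay lower in Ca/Ca at 10.86 ± 0.09 (SD, n = 4) than in Ca/+ at 11.16 ± 0.03 (SD, n = 2). That difference was -0.30 (95% interval -0.60 to 0.01, adjusted p 0.634). Rpn2 was also lower in every Ca/Ca sarcoma, at -0.31 (95% interval -0.71 to 0.08, adjusted p 0.677). The 95% intervals had a median half-width of 0.47 and were not adjusted for the number of genes tested. A call needed an adjusted p under 0.05, so with 4 and 2 tumours differences above that size could also be missed.

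The difference of the tissue effect between genotypes was also fitted on all 8 arrays. None of the 47 genes passed (0.00807% of all genes did). The smallest adjusted p among them was that of Pdia3 (0.341), at -1.10 (SE 0.24), which rests on 1 muscle per genotype.

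Within the 6 sarcomas the 47 genes had a median SD of 0.21. It was 0.24 for all genes and 0.27 for genes at least as bright as the dimmest of the 47, and this was not tested. Sdf2l1 (SD 0.69), Kdelr3 (0.61), Ero1l (0.58), Ssr4 (0.45), Herpud1 (0.43) and Xbp1 (0.43) varied most. Ca/Ca sarcoma 3 was the highest tumour for 14 genes and the lowest for 14 others (21.4% and 19.7% of all genes). Ca/Ca sarcoma 5 was the highest for 11 and the lowest for 9 (23.45% and 20.5% of all genes), and Ca/Ca sarcoma 1 the highest for 1 and the lowest for 7 (10.9% and 16.3%). Ca/Ca sarcoma 2 was more often highest (10 genes) than lowest (3), where all genes gave 11.3% and 10.2%, and so was Ca/+ sarcoma 2 (8 and 2, against 15.6% and 16.8%). Ca/+ sarcoma 1 was more often lowest (12 genes) than highest (3), against 16.5% and 17.3% of all genes. The mean over the 47 genes ran from 9.68 to 9.85 in the sarcomas, against 9.33 and 8.99 in the muscles.

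Beside the most variable genes, the B and plasma cell markers varied too. Their list mean was 7.40 in Ca/Ca sarcoma 3, 7.14 in Ca/Ca sarcoma 2, 6.40 in Ca/Ca sarcoma 1, 6.21 in Ca/+ sarcoma 2, 5.42 in Ca/+ sarcoma 1 and 5.33 in Ca/Ca sarcoma 5. Derl3 is both in this marker list and in the list of ER-associated degradation, and was named after its values were seen. Plasma cells are professional secretors that depend on Xbp1. The level of Xbp1 was 11.37 in Ca/Ca sarcoma 3, 11.41 in Ca/Ca sarcoma 2, 10.96 in Ca/Ca sarcoma 1, 11.32 in Ca/+ sarcoma 2, 10.39 in Ca/+ sarcoma 1 and 10.64 in Ca/Ca sarcoma 5. The same 2 tumours were lowest on both, and for Sdf2l1 the lowest tumour was Ca/Ca sarcoma 5 at 6.47. Jchain, the joining chain of antibodies, ran from 7.08 in Ca/Ca sarcoma 5 to 11.63 in Ca/Ca sarcoma 3 and was named after its values were seen. Sdc1 and Prdm1, the 2 genes of that list that were higher in sarcoma, were both highest in Ca/Ca sarcoma 5, where the list mean was lowest. Prdm1 was lowest in Ca/+ sarcoma 1 (4.92), and Sdc1 read 8.56 and 8.55 in Ca/+ sarcomas 1 and 2. Both genes were also named after their values were seen. The part of these cells in the spread of Xbp1 and Sdf2l1 was not tested. Ero1l followed another order, with Ca/Ca sarcoma 1 highest at 8.79, Ca/+ sarcoma 2 next at 8.21 and Ca/Ca sarcoma 2 lowest at 7.17.

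**Figure D5:**
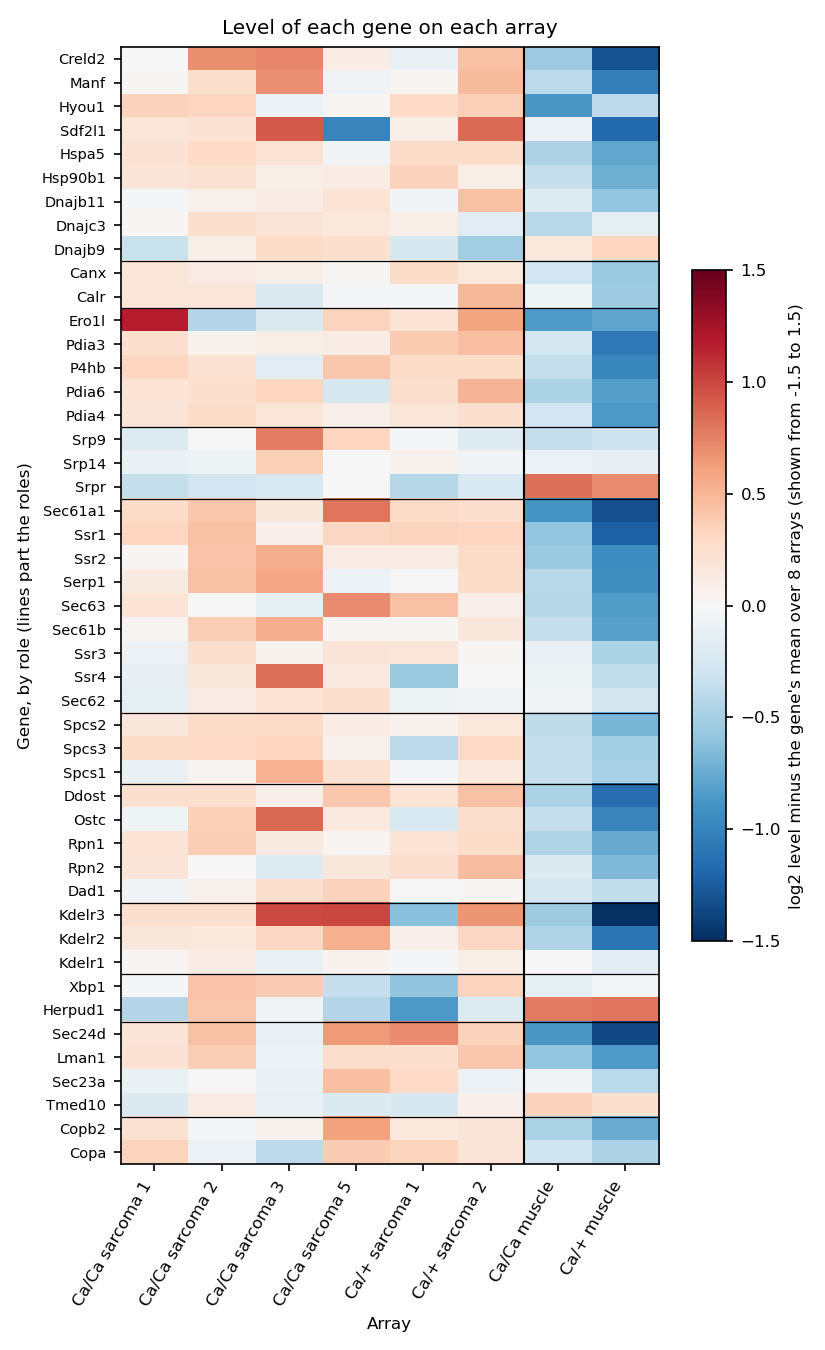
log2 level of the 47 measured genes on each array relative to the mean of the gene over 8 arrays, in colour from -1.5 to 1.5, with genes ordered by role. The 2 muscle columns on the right are blue for most genes and red for Srpr, Herpud1, Tmed10 and Dnajb9, and the Ca/+ muscle is the darker of them for most.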

How the data were processed

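Total RNA of 8 mouse samples was hybridised to Affymetrix arrays, 1 array per sample. The authors deposited log2 expression values per probe set, made with RMA per the submitters' processing notes. RMA corrects background, gives the arrays a common distribution and summarises probes, so a change of total RNA per cell is not measured. Its version, and whether the 8 arrays were processed together, are not given in the sources used here. In all, the table had 22690 probe sets, 64 of them controls. Of the others, 20380 had 1 gene symbol in the platform annotation, 691 had several and 1555 were not listed, which gave 12393 genes. Groups and tumour numbers came from the sample titles. No array was a copy, since any 2 shared at most 32 equal values.

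Per gene, the probe set with the highest mean over 8 arrays was tested with limma 3.58.1 (lmFit and eBayes, R 4.3.3) and Benjamini-Hochberg adjustment over all 12393 genes at 0.05. Sarcoma against muscle used all 8 arrays, genotype used the 6 sarcomas, and the difference of the tissue effect between genotypes used all 8 in 4 groups. The code that ran limma was tried on simulated data with 1 spread per gene for both tissues, so unequal spread was not covered. Same-numbered tumours did not deviate together (correlations of -0.19 and 0.29), so numbers were not used to pair them. Alternatives were other scalings, other probe set rules, filters on dim genes, array weights, arrays of 1 genotype and leaving out each array. The text names every measured member, and from each other pathway list and comparison list, but not from the cell marker lists, the 2 genes with the largest increase and the 2 with the largest decrease among those that passed, beside genes marked as named after their values were seen. The members and lists were chosen with earlier results of these data known. Promoters came from RefSeq (GRCm38.p6) and were searched in Python 3.11.15, and figures were drawn with matplotlib 3.10.9.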

Additional observations from a re-analysis of the deposited data

Results flagged for a closer look

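Each gene was screened in the 6 sarcomas and in the 4 Ca/Ca sarcomas, 94 groups in all, for a lowest or highest tumour that stood far from its nearest neighbour compared with the whole range. Chance gives about 1 in 20 such groups, and 6 of the 94 stood out. Hspa5, the chaperone BiP, was lowest in Ca/Ca sarcoma 5 at 11.2537, with the next tumour at 11.50. P4hb, a disulfide isomerase, was lowest in Ca/Ca sarcoma 3 at 11.0055, with the next at 11.38. Ssr1, a translocon-associated subunit, was lowest in the same tumour at 10.0859, with the next at 10.32. Srp14, of the signal recognition particle, was highest in that tumour at 11.2897, with the next at 11.00. Sec61a1, the translocon pore, was highest in Ca/Ca sarcoma 5 at 11.0469, with the next at 10.65. Spcs3, of signal peptidase, was lowest in Ca/+ sarcoma 1 at 8.6644, with the next at 9.12.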

How the results depend on the processing

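The number of genes that were higher in sarcoma ran from 5 to 27 when each array was left out in turn, the lowest value coming without the Ca/+ muscle, and that of lower genes from 1 to 2. With Ca/Ca arrays only, 0 genes were higher and 0 lower, and with Ca/+ arrays only, 4 were higher and 0 lower. Each of these fits has 1 muscle. Array weights gave 28 higher and 1 lower. Every gene was refitted under 20 alternatives, and of 940 values 804 kept their direction and side of the threshold, 100 no longer passed, 26 newly passed and 10 changed sign. The changes of sign came with housekeeping centring (Srp14 -0.11, Sec62 -0.032, Kdelr1 -0.14, Xbp1 -0.13), cyclic loess (Srp14 -0.15, Sec62 -0.044, Kdelr1 -0.15, Xbp1 -0.16), the mean of probe sets (Ssr4 -0.047) and Ca/+ arrays only (Xbp1 -0.10), and their cause was not tested. Of 24 genes with more than 1 probe set above 6 log2 units, 20 had probe sets of 1 sign. With tumour number as a replicate block, possible for 2 pairs, the genotype comparison called 0 of the 47 genes, as it did without the block. With 6 sarcomas and 2 muscles the number of arrays limits the precision, and the median half-width of the 95% interval for sarcoma against muscle was 0.44.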
